A study of Mus musculus with 38 samples.

Results

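Mouse bone marrow-derived macrophages were compared between 16 h and 24 h of continued stimulation with lipopolysaccharide (LPS) and interferon-gamma (IFNg), without lactic acid. The samples are the 4 RNA libraries labelled 16 h and the 4 labelled 24 h, 8 of the 38 samples in the series, and every gene of the expression table is included. All 8 libraries come from primary macrophages of C57BL/6 mice given 5 ng/ml LPS and 12 ng/ml IFNg, and the hours of stimulation, 16 or 24, are the only difference the labels give. The other RNA libraries are 4 each at 0, 4 and 8 h, and 4 each at 8, 16 and 24 h from an arm that also received lactic acid from 4 h of stimulation on. The dose of lactic acid was not given in the sources used here. The remaining 6 samples are ChIP-seq libraries of unstimulated (M0) cells and of cells stimulated for 24 h (M1). The labels do not say whether the 4 libraries of a group come from separate mice or cultures, so p-values measure only spread between libraries, which may be technical. For the tests of single genes this spread is pooled over all 32 RNA libraries in their 8 groups, and not taken from the 16 h and 24 h libraries alone. The age and sex of the mice were not given in the sources used here.

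LPS is sensed by Toll-like receptor 4 and IFNg by its own receptor, and together they drive macrophages into the inflammatory state called M1. Within hours NF-kB and interferon regulatory factors switch on cytokines, chemokines and antiviral genes, the cells turn to glycolysis, and inducible nitric oxide synthase makes nitric oxide from arginine. Much of this first wave is transient: inhibitors of NF-kB, mRNA decay factors and secondary transcription factors shut it down, while genes of metabolism, repair and tissue remodelling can come up later.

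Levels are given as RPKM (reads divided by the length of the gene and the size of the library), so they can be compared between genes. The 8 libraries held between 62.7 and 92.8 M reads in the listed genes. Log2 differences are 24 h minus 16 h on the scale of log2(RPKM + 1), with the standard error (SE) of the fit, and they understate the change of genes with low levels. A gene was called higher or lower, and is said here to have risen or fallen, when its limma p-value, adjusted over all 9942 tested genes by Benjamini-Hochberg, was under 0.05. The genes named for the largest rises and falls were chosen among genes whose groups do not overlap, so their separation follows from that choice. One library, 24 h replicate 4, stood apart from the other 3 at 24 h. Its deviation from the mean of all libraries fell with gene length at a slope of -0.211 per doubling of length, against -0.0504, -0.0664 and -0.00124 in the others, and ferritin heavy chain, Saa3 and Lyz2 took 17.9% of its reads against 13.4 to 15.3%. Counts of gene lists whose balance turns without this library are given with and without it.

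Between 16 and 24 h, 2398 genes rose (24.1% of 9942) and 2316 fell (23.3%), or 4714 in either direction (47.4%). The counts of every gene list below stand against 24.1% higher and 23.3% lower. These shares are of a list the authors had already filtered for change over the time course, since all but 19 of its 11184 genes have a false discovery rate under 0.05 in the authors' deposited table. Most changes were small: 231 genes rose by at least 1.5-fold (2.32%) and 221 fell by as much (2.22%), while 27 rose and 29 fell by at least 2-fold. The 4 libraries at 24 h lay wholly above the 4 at 16 h for 1478 genes (14.9%) and wholly below for 1552 (15.6%). The median log2 difference over all tested genes was 0.01. Scaling by the reads in listed genes in place of the authors' library size moved that median to -0.07 and gave 1596 genes higher and 3226 lower, so the share of higher calls fell from 50.9% to 33.1%. With only the 8 libraries in the fit, so that no other group enters the spread, 1320 genes were higher and 1365 lower. Between pairs of libraries the root mean square log2 difference ran from 0.0827 to 0.226 at 16 h and from 0.14 to 0.351 at 24 h. Every value is relative to the RNA of the same library, and fewer cells of a type cannot be told apart from less RNA per cell.

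**Figure D1:**
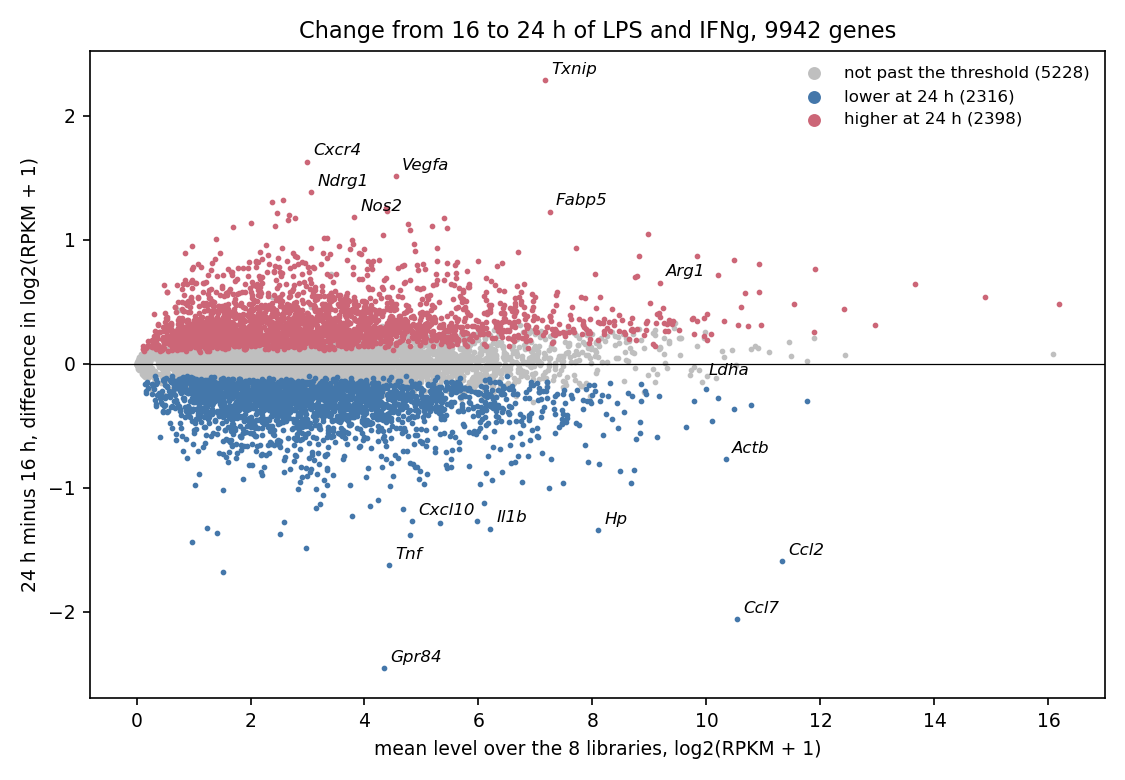
Each point is 1 of 9942 genes, with its mean level over the 8 libraries in log2(RPKM + 1) on the x axis and its difference between 24 h and 16 h on the same scale on the y axis. Red points are the 2398 genes called higher and blue the 2316 called lower. Txnip lies at the top at 2.29, and Gpr84 and Ccl7 at the bottom at -2.46 and -2.06.

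Txnip showed the largest rise of all tested genes on this scale. It encodes thioredoxin-interacting protein, an arrestin that binds thioredoxin and holds back glucose uptake. Its level was 61.3, 67.5, 70.2 and 58 RPKM in the 4 libraries at 16 h and 336, 258, 290 and 399 RPKM at 24 h. The groups were far apart, with a log2 difference of 2.29 (SE 0.10, limma adjusted p = 2.3e-17) and a 24 h mean 4.99 times the 16 h mean. The promoter of Txnip is shown for this reason, as the 250 bases before the start of the gene in the RefSeq table of build GRCm38.p6 (chr3:96557707-96557956, plus strand). Capitals mark CCAAT on either strand, the letters that the factor NF-Y is known to bind, at 137 and 102 bases before the start. They occur in the 300-base promoter windows of 43.3% of the 7997 tested genes that have one.
Txnip: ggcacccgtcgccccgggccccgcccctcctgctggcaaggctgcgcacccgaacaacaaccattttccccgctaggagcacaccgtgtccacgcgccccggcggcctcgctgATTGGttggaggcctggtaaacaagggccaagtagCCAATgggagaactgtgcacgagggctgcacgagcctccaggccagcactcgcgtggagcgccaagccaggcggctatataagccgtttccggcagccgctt

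Cxcr4, the receptor for the chemokine CXCL12, was low at 16 h, at 3.02, 4.22, 4.04 and 3.06 RPKM, and reached 18, 10.5, 11.9 and 13 RPKM at 24 h. The log2 difference was 1.63 (SE 0.11, limma adjusted p = 9.2e-13), with replicate 1 the highest of the 24 h libraries. Vegfa, the growth factor of blood vessels, went from 13, 12.1, 12.9 and 13.7 RPKM to 41.6, 28.1, 37.1 and 50.9 RPKM. All 24 h libraries exceeded all 16 h libraries although they spread from 28.1 upward, and the log2 difference was 1.51 (SE 0.10, limma adjusted p = 4.3e-13). Ndrg1, a stress gene induced by low oxygen, stood at 4.20 ± 0.355 RPKM (SD, n = 4) at 16 h and 12.6 ± 1.41 RPKM at 24 h, a log2 difference of 1.39 (SE 0.08, limma adjusted p = 1.4e-14).

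Nfil3, a transcription factor of the basic leucine zipper type, and Fabp5, a carrier of fatty acids, rose with log2 differences of 1.25 and 1.23. Gas6, the ligand of the receptors through which macrophages bind dying cells, rose from 27.1 ± 0.467 to 62.6 ± 4.68 RPKM (SD, n = 4), which is a log2 difference of 1.18. The linker histone gene Hist1h1c rose with a log2 difference of 1.11. Klf2, a transcription factor that restrains NF-kB activity in myeloid cells, rose from 18.2 ± 2.82 to 39.8 ± 7.48 RPKM (SD, n = 4). In these 5 genes no 16 h library reached the lowest 24 h library, which the rule that named them required.

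**Figure D2:**
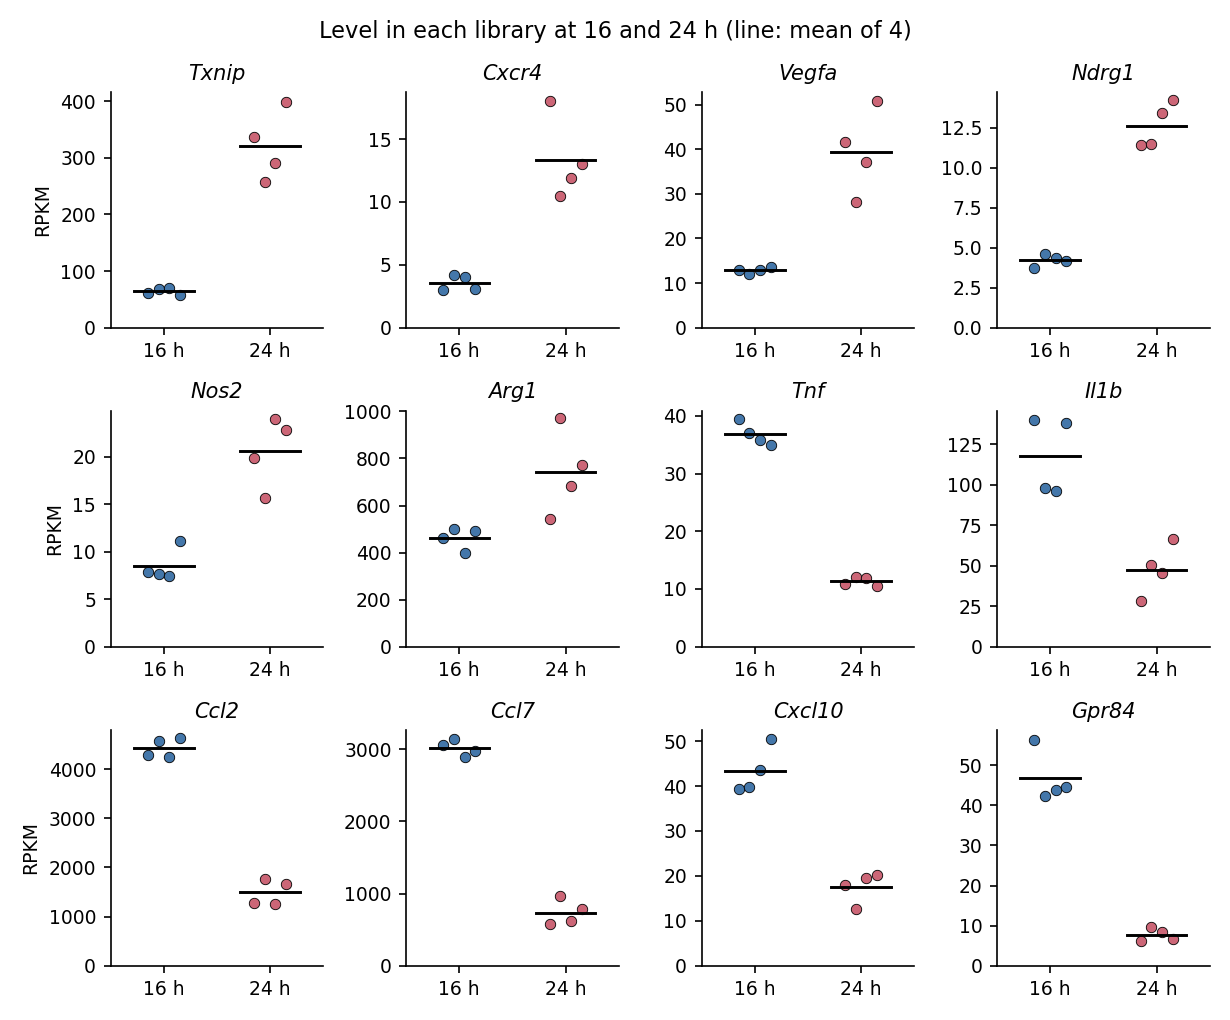
RPKM of 12 genes in each of the 4 libraries at 16 h (blue) and the 4 at 24 h (red), each on its own linear axis from 0, with a line at the mean. In all 12 the groups do not overlap, with Arg1 closest to touching (highest at 16 h 502, lowest at 24 h 541). Those named for the largest changes were chosen for having no overlap.

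The largest fall on this scale was in Gpr84, a receptor for medium-chain fatty acids that inflammatory stimuli induce. It stood at 56.3, 42.4, 43.8 and 44.6 RPKM at 16 h and 6.26, 9.67, 8.46 and 6.67 RPKM at 24 h, a log2 difference of -2.46 (SE 0.14, limma adjusted p = 1.6e-14). A pair of CC chemokines that recruit monocytes were still abundant at 16 h and then dropped. Ccl7 went from 3060, 3140, 2890 and 2970 RPKM to 580, 966, 621 and 781 RPKM, a log2 difference of -2.06 (SE 0.15, limma adjusted p = 3.9e-12). Ccl2 went from 4290, 4580, 4240 and 4630 RPKM to 1280, 1760, 1250 and 1670 RPKM, a log2 difference of -1.59 (SE 0.12, limma adjusted p = 6.2e-12). For both genes the groups did not overlap, as the rule for the largest changes required.

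Ddx17, an RNA helicase that acts in splicing and transcription, fell from 43.6 ± 2.53 to 16.2 ± 1.57 RPKM (SD, n = 4), a log2 difference of -1.38 (SE 0.06). Slc2a6, a sugar transporter of the lysosome membrane, fell with a log2 difference of -1.17. Cbr2, a carbonyl reductase, fell with a log2 difference of -1.23. Its level at 0 h had been 68 RPKM, and at 24 h it was 8.02 ± 0.855 RPKM (SD, n = 4).

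Targets of the hypoxia-inducible factors (HIF), which respond to low oxygen and are also switched on by LPS in macrophages, mostly rose. Of 24 tested members 16 rose and 3 fell, with a median difference of 0.56 against 0.01 over all genes. All 16 and all 3 were without overlap between the libraries, against 14.9% higher and 15.6% lower without overlap over all tested genes. Beside Vegfa and Ndrg1, the leading members were Ankrd37, an ankyrin repeat protein, and Egln3, the prolyl hydroxylase that marks HIF for breakdown. Ankrd37 stood at 11.2, 13.9, 13.4 and 12.4 RPKM at 16 h and 25.9, 25.8, 28 and 50.3 RPKM at 24 h, a log2 difference of 1.23 (SE 0.15, limma adjusted p = 7e-08). Replicate 4 was far above the other 3 at 24 h. Egln3 stood at 18.2, 17.8, 16.1 and 17.7 RPKM and 35.3, 40.5, 38.8 and 43.3 RPKM, a log2 difference of 1.13 (SE 0.12, limma adjusted p = 1e-08), and no library stood apart. Ddit4, an inhibitor of mTORC1, and Hilpda, a brake on fat breakdown in lipid droplets, rose with log2 differences of 0.78 and 0.64. The members that fell were P4ha2, Pfkfb4 and Plin2, at -0.27, -0.22 and -0.17. The list is a selection. Genes of glycolysis have a list of their own below, where Eno1 and Pkm, not members here, fell by more than these. Without 24 h replicate 4 the counts were 18 higher and 3 lower, and the median was 0.44.

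The promoters of Ankrd37 (chr8:45999851-46000100, minus strand) and Egln3 (chr12:54203875-54204124, minus strand) are printed because these genes are among the leading members and hold the element searched. Vegfa, which rose more, also holds it and is not printed. As above they are the 250 bases before the start, 5′ to 3′ on the gene's strand, from RefSeq (GRCm38.p6). Capitals mark ACGTG on either strand, the core of the hypoxia response element, at 241 and 6 bases before the start of Ankrd37 and at 229 before that of Egln3. Of the 21 tested HIF targets with a promoter, 17 (81.0%) hold these letters in their 300-base windows, against 30.3% of the 7997 genes. The list was made of known targets, so a high share goes with its making and says nothing about the step. The match is a description of letters, and binding at these promoters was not measured.
Ankrd37: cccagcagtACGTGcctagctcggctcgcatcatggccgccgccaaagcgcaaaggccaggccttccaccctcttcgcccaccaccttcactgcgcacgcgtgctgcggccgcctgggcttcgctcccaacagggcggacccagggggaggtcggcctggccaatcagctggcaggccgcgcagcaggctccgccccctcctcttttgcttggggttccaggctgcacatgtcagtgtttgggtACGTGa
Egln3: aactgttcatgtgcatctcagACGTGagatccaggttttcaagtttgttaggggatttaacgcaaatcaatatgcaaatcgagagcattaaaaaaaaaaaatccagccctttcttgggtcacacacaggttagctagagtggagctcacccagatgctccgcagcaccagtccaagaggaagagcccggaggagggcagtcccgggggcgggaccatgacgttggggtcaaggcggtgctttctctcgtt

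Inflammatory mediators fell. Of 37 tested cytokine, chemokine and inflammatory enzyme genes 24 fell and 2 rose, with a median difference of -0.51. Tnf, the first cytokine of the LPS response, stood at 39.4, 37, 35.8 and 34.9 RPKM at 16 h and 10.8, 12, 11.9 and 10.5 RPKM at 24 h. The groups were narrow and well separated, with a log2 difference of -1.62 (SE 0.08, limma adjusted p = 5.2e-16) and a 24 h mean at 0.307 of the 16 h mean. Il1b, which encodes the precursor of interleukin-1 beta, stood at 140, 98, 96.1 and 138 RPKM and 28.5, 50.3, 45.2 and 66.3 RPKM. Its libraries spread widely within both groups, and the log2 difference was -1.33 (SE 0.22, limma adjusted p = 9.9e-06).

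Cxcl10, a chemokine that attracts T cells, stood at 39.3, 39.7, 43.7 and 50.6 RPKM at 16 h and 18, 12.6, 19.5 and 20.1 RPKM at 24 h, a log2 difference of -1.27 (SE 0.13, limma adjusted p = 7.5e-09). Il6 was nearly silent by then, with 0.671 to 0.890 RPKM at 16 h and 0.169 to 0.469 RPKM at 24 h, so its log2 difference of -0.48 understates a 24 h mean at 0.354 of the 16 h mean. Csf3, the granulocyte growth factor, fell from a mean of 2.33 RPKM at 16 h to one of 0.195 RPKM at 24 h. Ptges, which makes prostaglandin E2, and Hp, the haemoglobin scavenger haptoglobin, fell with log2 differences of -1.28 and -1.34. The members that rose were Nos2 and Tnfsf9, a ligand of T cell costimulation, with log2 differences of 1.18 and 0.31. Members that did not pass included Ccl5 at 0.02, Saa3 at 0.08 and Lcn2 at -0.15, 3 genes named after their values were seen.

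Interferon-stimulated genes fell too: 31 of 40 tested members fell and 1 rose, and the median was -0.42. Gbp2, a guanylate-binding protein that attacks the vacuoles of pathogens, stood at 84.4, 98.3, 105 and 99.3 RPKM at 16 h and 47.1, 35.9, 39.4 and 37 RPKM at 24 h, a log2 difference of -1.26 (SE 0.08, limma adjusted p = 4.1e-13) with no overlap. Its relative Gbp3, the antiviral GTPase Mx1 and Cmpk2, a mitochondrial nucleotide kinase, fell with log2 differences of -1.01, -0.99 and -0.89. The member that rose was Irf1, a factor of the interferon response, with a log2 difference of 0.17. None of the 40 rose without 16 h replicate 1 or 4, without 24 h replicate 1 or 4, with only the 8 libraries in the fit, or when scaled by the reads in listed genes, and 25 to 34 fell in these settings. Irf9 and Bst2, named after their values were seen, stood at -0.04 and -0.01 and did not pass.

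The promoters of Cxcl10 (chr5:92348890-92349139, minus strand) and Gbp2 (chr3:142620413-142620662, plus strand) are shown as interferon-inducible genes with large falls whose windows hold the element searched. Capitals mark the interferon-stimulated response element, searched as a pair of GAAA with any 2 bases between them, on either strand. It lies at 213 bases before the start of Cxcl10 and 59 before that of Gbp2. Of 32 interferon-stimulated genes with a promoter 19 (59.4%) hold it, against 4.21% of the 7997 tested genes. That share goes with how the list was made and does not describe the step. Among the genes that fell by at least 1.5-fold the share was 10.9% of 174, and among those that rose by as much 2.76% of 181.
Cxcl10: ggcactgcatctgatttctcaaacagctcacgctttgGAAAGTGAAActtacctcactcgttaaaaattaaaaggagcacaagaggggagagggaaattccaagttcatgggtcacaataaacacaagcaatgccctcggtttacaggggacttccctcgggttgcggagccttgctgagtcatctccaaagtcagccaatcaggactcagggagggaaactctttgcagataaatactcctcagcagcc
Gbp2: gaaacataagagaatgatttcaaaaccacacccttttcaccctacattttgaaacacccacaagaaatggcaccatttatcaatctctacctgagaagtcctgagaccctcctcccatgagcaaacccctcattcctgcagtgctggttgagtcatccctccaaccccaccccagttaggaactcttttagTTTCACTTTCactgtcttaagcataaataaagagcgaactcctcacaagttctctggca

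Of 33 tested NF-kB feedback and immediate early genes 12 rose and 10 fell, and the median was 0.01. Without 24 h replicate 4, and likewise when scaled by the reads in listed genes, 10 rose and 13 fell. Nfkb2, the precursor of the p52 subunit, led those that fell with a log2 difference of -0.76, and the NF-kB inhibitor Nfkbie fell with -0.45. Klf2, Jund and Atf3, 3 transcription factors, led those that rose. Jund, a subunit of AP-1, stood at 10.5, 9.66, 8.40 and 9.78 RPKM at 16 h and 20.5, 11.2, 14.4 and 25.6 RPKM at 24 h, a log2 difference of 0.78 (SE 0.18, limma adjusted p = 0.00077) in which replicates 1 and 4 were well above the other 2 at 24 h. Atf3, a stress-induced repressor of cytokine genes, rose from 135 ± 15.5 to 204 ± 39.7 RPKM (SD, n = 4).

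Genes of arginine use moved in opposite directions. Nos2, which makes nitric oxide from arginine, stood at 7.85, 7.68, 7.40 and 11.1 RPKM at 16 h and 19.9, 15.7, 24 and 22.8 RPKM at 24 h, a log2 difference of 1.18 (SE 0.13, limma adjusted p = 8e-09). Its mean at 4 h had been 435 RPKM. Arg1, which turns arginine into ornithine and urea and is a marker of the repair state, stood at 461, 502, 399 and 490 RPKM and 541, 973, 685 and 773 RPKM, a log2 difference of 0.65 (SE 0.22, limma adjusted p = 0.014). Its groups were just apart, and without 24 h replicate 2 the difference was 0.51 with a limma adjusted p of 0.063. The arginine transporter Slc7a2 fell from 4.09, 3.88, 3.93 and 4.54 RPKM to 0.604, 0.603, 0.595 and 0.570 RPKM, and Ass1, which rebuilds arginine from citrulline, from 150 ± 11.4 to 77.3 ± 7.24 RPKM (SD, n = 4). Sat1, which breaks down polyamines, rose with a log2 difference of 0.90. In all, 5 of 16 tested members rose and 8 fell.

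Markers of alternative activation did not move together: 5 of 20 rose and 8 fell, and the median was -0.07. Mrc1, the mannose receptor, stood at 26.2, 28.7, 28.4 and 24.7 RPKM at 16 h and 48.4, 70.2, 61.6 and 36.2 RPKM at 24 h, a log2 difference of 0.94 (SE 0.12, limma adjusted p = 2.4e-07). Clec10a, a lectin receptor, rose with a log2 difference of 0.71, while the chemokine Ccl17 fell with one of -0.76. Chil3, a chitinase-like protein named after its values were seen, fell with -0.63. Growth and repair factors were also mixed, with 8 of 25 higher and 6 lower. Without 24 h replicate 4 the counts were 7 and 7, and scaled by the reads in listed genes 5 and 6. Beside Vegfa, the collagenase Mmp8 rose with a log2 difference of 0.91. Another collagenase, Mmp13, and the matrix protein Tgfbi fell with log2 differences of -0.88 and -0.96.

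Of 24 tested glycolysis genes 9 rose and 4 fell, the median was 0.07, and under scaling by the reads in listed genes 5 rose and 8 fell. With only the 8 libraries in the fit 4 rose and 3 fell. The members that fell were Slc2a6, described above, with the largest log2 difference of the list (-1.17), the enolase and pyruvate kinase genes Eno1 and Pkm (-0.41 and -0.33) and the hexokinase Hk3 (-0.15). Slc2a1, a main glucose transporter, rose from 69.1 ± 3.20 to 97.8 ± 11.6 RPKM (SD, n = 4). Eno2, an enolase of low level here, and Ldhb, a lactate dehydrogenase subunit, rose with log2 differences of 0.71 and 0.46. Ldha, the subunit that favours lactate production, stood at 1010, 1110, 1060 and 922 RPKM at 16 h and 821, 1020, 855 and 1030 RPKM at 24 h. The groups overlapped and the log2 difference of -0.14 did not pass (limma adjusted p = 0.18), except when scaled by the reads in listed genes, where it was -0.24 with a limma adjusted p of 0.0073.

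In the mitochondrion, genes of the TCA cycle and pyruvate oxidation gave 8 of 32 higher and 6 lower, shares near those of all tested genes (24.1% and 23.3%). Without 24 h replicate 4 the counts were 6 and 8, and scaled by the reads in listed genes 4 and 10. Pdk2, a kinase that switches off pyruvate dehydrogenase, and Mpc2, a subunit of the pyruvate carrier, rose with log2 differences of 0.56 and 0.38. Pyruvate carboxylase (Pcx) and the isocitrate dehydrogenase subunit Idh3a fell with log2 differences of -0.54 and -0.41. Nuclear-encoded respiratory chain subunits gave 6 of 37 higher and none lower, with log2 differences of 0.34 for Ndufa2 and 0.30 for Uqcrh. Ribosomal protein genes of the cytosol gave 14 of 30 higher and none lower, with log2 differences of 0.53 for Rpl3 and 0.39 for Rpl13. Both counts move with single libraries. Rpl13 stood at 165, 154, 141 and 255 RPKM in the 4 libraries at 24 h. Without replicate 4, the library with the steep slope on gene length, none of the 37 respiratory genes rose and 3 fell, and 3 of the 30 ribosomal genes rose. Leaving out each of the other 7 libraries in turn gave between 4 and 14 respiratory genes higher and between 4 and 24 ribosomal genes higher, with the lowest ribosomal count without 16 h replicate 4. With only the 8 libraries in the fit none of the respiratory genes passed and 1 ribosomal gene rose. Scaled by the reads in listed genes, 4 respiratory genes were higher and 9 lower. Transcripts of the mitochondrial genome showed 1 of 12 higher, mt-Co1 with a log2 difference of 0.36 (none higher and 1 lower when scaled by the reads in listed genes), and their share of reads ran from 0.174 to 0.234% at 16 h and 0.178 to 0.256% at 24 h.

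Genes of sterol synthesis fell together. Of 23 tested members of the cholesterol pathway and its regulators 20 fell and 1 rose, Tm7sf2 with a log2 difference of 0.41, and the median was -0.39. Cyp51, the sterol demethylase, stood at 16.3, 19.8, 19.6 and 15.7 RPKM at 16 h and 7.83, 10.0, 8.79 and 7.74 RPKM at 24 h, a log2 difference of -0.97 (SE 0.09, limma adjusted p = 5.5e-10). Sqle, which prepares squalene for ring closure, fell with a log2 difference of -0.73. In fatty acid synthesis 9 of 15 fell and 1 rose, Elovl5. Fasn, the fatty acid synthase, and the malic enzyme Me1 fell with log2 differences of -0.41 and -0.60. Targets of the sterol-sensing liver X receptors (LXR), which export cholesterol, gave 6 of 12 higher and 3 lower, but 3 and 3 without 24 h replicate 1 and also when scaled by the reads in listed genes. The cholesterol transporter Abcg1 and Pltp, which moves phospholipids between lipoproteins, rose with log2 differences of 0.46 and 0.64. Nr1h3, the gene of LXR alpha itself, fell with one of -0.56.

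Chaperone genes fell both in the endoplasmic reticulum and in the cytosol. In the endoplasmic reticulum 14 of 24 fell and 4 rose, and the median was -0.24. Creld2, a protein of the stress response, stood at 92.2, 93.7, 92.3 and 82.7 RPKM at 16 h and 43.7, 36.9, 39.1 and 68.3 RPKM at 24 h, a log2 difference of -0.97 (SE 0.11, limma adjusted p = 1.4e-08). At 24 h replicate 4 lay between the other 3 and the 16 h libraries. Pdia4, a disulfide isomerase, and the calcium-binding chaperone Calr fell with log2 differences of -0.61 and -0.46. The members that rose were Ern1, Edem1, Xbp1 and Ero1lb, with log2 differences between 0.14 and 0.40. Their products signal stress (Ern1, Xbp1), dispose of misfolded proteins (Edem1) or form disulfides (Ero1lb). In the cytosol 10 of 19 heat shock genes fell and 2 rose, and the median was -0.33. Hsp90aa1 fell from 74.2, 75.7, 74.5 and 75.9 RPKM to 41.1, 47, 41.9 and 38.4 RPKM, and Hspa8, the constitutive Hsp70, from 368 ± 33.9 to 210 ± 21.3 RPKM (SD, n = 4). The members that rose were Dnajb4 and Bag3, with log2 differences of 0.43 and 0.28.

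The promoter of Creld2 (chr15:88819396-88819645, plus strand, RefSeq GRCm38.p6) is printed because the gene fell most in these lists and holds the element searched. Capitals mark the endoplasmic reticulum stress element, which is CCAAT, any 9 bases and CCACG, on either strand, at 126 bases before the start. Of 20 genes of the endoplasmic reticulum list with a promoter 8 (40.0%) hold it, against 0.138% of the 7997 tested genes. This share describes the list and not the step. The element contains the CCAAT letters marked in Txnip.
Creld2: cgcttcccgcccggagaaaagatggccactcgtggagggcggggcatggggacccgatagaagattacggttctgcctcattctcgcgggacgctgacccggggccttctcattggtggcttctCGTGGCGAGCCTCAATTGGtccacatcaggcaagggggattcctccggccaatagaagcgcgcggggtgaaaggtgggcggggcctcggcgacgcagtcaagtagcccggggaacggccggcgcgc

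Of 24 genes of the ATF4 amino acid response 7 rose and 6 fell, shares near those of all tested genes (24.1% and 23.3%). With 24 h replicate 4 left out 5 rose and 8 fell, and scaled by the reads in listed genes 5 and 9. The transcription factors Atf5 and Cebpb rose with log2 differences of 0.81 and 0.80, while Psat1, an enzyme of serine synthesis, and Atf4 itself fell with -0.80 and -0.72. Gdf15, a stress cytokine of this list, had a log2 difference of 0.73 with libraries at 114, 25.1, 42.5 and 120 RPKM at 24 h against 30.6, 39.6, 39.5 and 38.7 at 16 h. The groups overlapped. Its limma adjusted p of 0.047 rose to 0.24 without 24 h replicate 1 and 0.25 without replicate 4, where the difference was 0.44 and 0.42. Of the 20 aminoacyl-tRNA synthetases, which charge tRNAs, 11 fell and none rose, led by Iars and Wars with log2 differences of -0.54 and -0.43. Of 25 targets of the antioxidant factor NRF2 4 rose and 8 fell, against 24.1% and 23.3% of all tested genes. G6pdx, the entry to the pentose phosphate pathway, had a log2 difference of -0.54, and Gclc, of the first step of glutathione synthesis, one of 0.49.

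Of 21 tested genes of iron handling 4 rose and 6 fell, against 24.1% and 23.3% of all tested genes. Ferritin light chain (Ftl1) stood at 9870, 10800, 10900 and 10000 RPKM at 16 h and 16400, 13700, 13900 and 22000 RPKM at 24 h, a log2 difference of 0.64 (SE 0.11, limma adjusted p = 1.3e-05), and the iron exporter Slc40a1 rose from 12.3 ± 1.81 to 21.8 ± 1.81 RPKM (SD, n = 4). Ceruloplasmin (Cp), a plasma protein that oxidises iron, fell with a log2 difference of -0.65.

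Lysosomal genes rose, with 20 of 30 higher, 3 lower and a median of 0.25. Atp6v0d2, a subunit of the proton pump, stood at 1.66, 1.63, 1.89 and 1.60 RPKM at 16 h and 5.60, 4.44, 4.39 and 5.32 RPKM at 24 h, a log2 difference of 1.13 (SE 0.08, limma adjusted p = 3.9e-12). The protease gene Ctsl, already abundant, rose from 1470 ± 107 to 2570 ± 308 RPKM (SD, n = 4). The members that fell were the protease gene Ctsc, with a log2 difference of -0.49, and the pump subunits Atp6v0d1 and Atp6v1h, with -0.14 each. Without 24 h replicate 4, 17 rose and 3 fell. With only the 8 libraries in the fit 5 rose and 1 fell, at the same median.

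In antigen presentation by MHC class II, 4 of 8 tested members rose and none fell. Those were Ctss, the protease that trims the invariant chain, with a log2 difference of 0.58, and H2-DMa, H2-Ob and H2-DMb1, which act in peptide loading. The class II molecules themselves gave log2 differences of 0.06 for H2-Aa, 0.04 for H2-Ab1 and 0.02 for H2-Eb1, none past the threshold. For class I, 8 of 20 rose and 6 fell, and the median was -0.06. The counts without 24 h replicate 4 were 7 higher and 9 lower, and scaled by the reads in listed genes 8 and 9. The proteasome activators Psme1 and Psme2 and the peptide editor Tapbpl fell with log2 differences of -0.58, -0.66 and -0.52. The members that rose were B2m, the light chain, with 0.44 and 7 heavy chain genes, whose near-identical copies can share reads, so single values among them are uncertain.

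Many cell cycle genes rose from low levels. Of 30 mitosis and spindle genes 18 rose and 2 fell, and the median was 0.21. Of 30 DNA replication genes 15 rose and 1 fell, and the median was 0.15. Cdc25b, a phosphatase that starts mitosis, stood at 3.28, 3.63, 3.97 and 3.94 RPKM at 16 h and 7.45, 6.15, 7.42 and 8.39 RPKM at 24 h, a log2 difference of 0.82 (SE 0.07, limma adjusted p = 1.4e-10). The kinase Aurkb rose from 1.44 ± 0.182 to 3.08 ± 0.244 RPKM, Bub1, of the spindle checkpoint, from 0.797 ± 0.0599 to 1.82 ± 0.215 RPKM and Cenpa, the histone of the centromere, from 0.431 ± 0.0779 to 1.30 ± 0.333 RPKM (SD, n = 4 each). At 0 h the same 3 genes had stood at 19.8, 10.7 and 13.5 RPKM, far above either time. In replication, cyclin E2 (Ccne2), the ribonucleotide reductase gene Rrm1 and the polymerase gene Pold1 rose with log2 differences of 0.46, 0.43 and 0.38. The members that fell were Hmmr, Aurka and Tyms, with log2 differences between -0.19 and -0.17. A number of these genes passed the minimum level only through other times: with the minimum applied to the 8 libraries alone, 12 mitosis genes were tested and 10 rose.

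Cdk1, the kinase of mitosis, rose from 4.45 ± 0.647 to 6.33 ± 0.866 RPKM (SD, n = 4) and was named after its values were seen, as a mitotic gene whose promoter holds the cell cycle homology region. That promoter (chr10:69352913-69353162, minus strand, RefSeq GRCm38.p6) is printed with TTTGAA in capitals on either strand, at 71 and 15 bases before the start. Of 24 mitosis genes with a promoter 17 (70.8%) hold these letters, against 14.3% of the 7997, a share that describes the list and not the step.
Cdk1: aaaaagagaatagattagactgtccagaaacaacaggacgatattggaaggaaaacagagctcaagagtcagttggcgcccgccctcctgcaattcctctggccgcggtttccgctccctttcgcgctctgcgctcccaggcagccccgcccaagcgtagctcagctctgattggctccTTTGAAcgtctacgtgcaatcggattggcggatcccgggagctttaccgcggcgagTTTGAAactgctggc

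Actin and adhesion genes fell, with 16 of 28 lower, 3 higher and a median of -0.21. Actb, often used as a reference gene, stood at 1810, 1560, 1630 and 1790 RPKM at 16 h and 934, 936, 1040 and 1070 RPKM at 24 h, a log2 difference of -0.77 (SE 0.08, limma adjusted p = 5.7e-09) without overlap. With only the 8 libraries in the fit 7 fell and 2 rose. Flna, which crosslinks actin, Icam1, an adhesion ligand of leukocytes, and the integrin chain Itgal fell with log2 differences of -0.87, -0.82 and -0.83. The members that rose were Vim, Itgam and Itgb2, with 0.44, 0.36 and 0.16. Among 24 enzymes that add or remove histone acyl groups 5 rose and 7 fell, against 24.1% and 23.3% of all tested genes. Scaled by the reads in listed genes 3 rose and 12 fell. The deacetylase Hdac1 stood at 25.9, 25.6, 24.8 and 21.4 RPKM at 16 h and 13.4, 17.1, 13.3 and 13.1 RPKM at 24 h, a log2 difference of -0.74 (SE 0.08, limma adjusted p = 1.6e-08), and the acetyltransferase Kat2a fell with -0.60. Hdac5 rose with a log2 difference of 0.56. Ep300, an acetyltransferase named after its values were seen, gave 0.03 and did not pass.

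**Figure D3:**
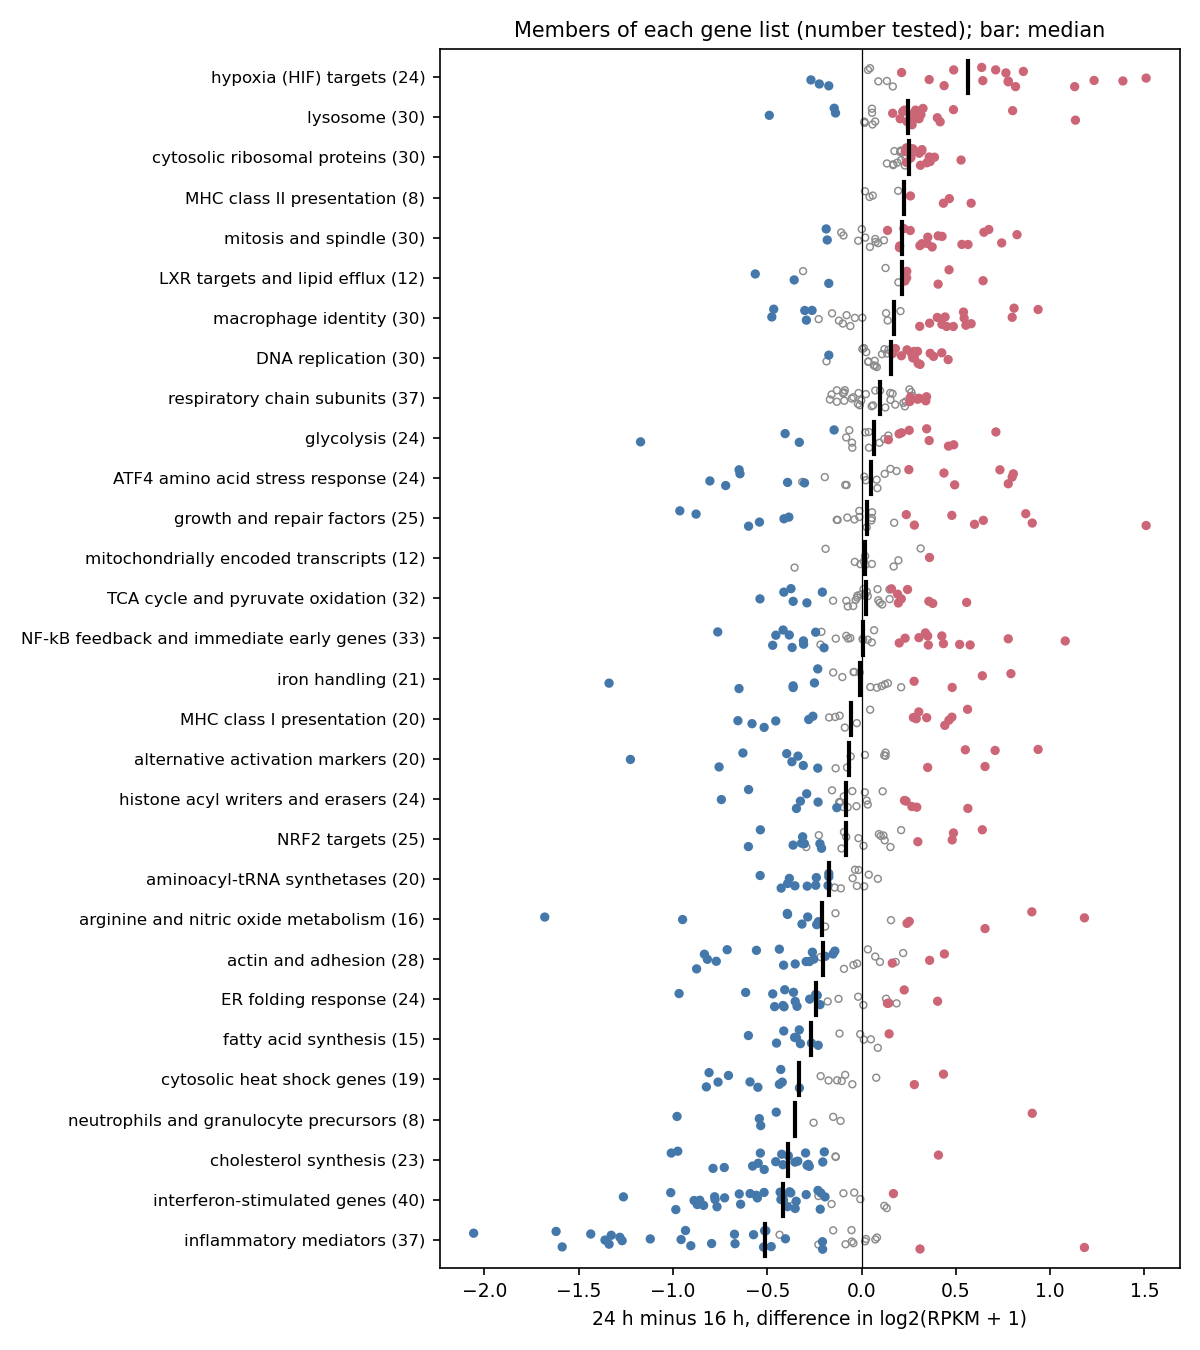
Difference between 24 h and 16 h in log2(RPKM + 1) (x axis) for every tested member of the gene lists with at least 8 tested members (rows, with the number tested). Filled red points were called higher, filled blue lower, open points did not pass, and the black bar is the list's median, from -0.51 for inflammatory mediators to 0.56 for hypoxia targets.

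The libraries carried the markers of macrophages throughout: all 30 macrophage identity genes were tested, and their summed level ran from 30300 to 42100 RPKM at 16 h and 45100 to 58400 RPKM at 24 h. The means were 37200 and 50400 RPKM (two-sided exact permutation p = 0.0286, the smallest that 4 against 4 libraries can give, and 0.157 adjusted over 11 library values). Most of this sum is Lyz2, lysozyme, at 25500 ± 4490 and 36900 ± 5600 RPKM (SD, n = 4). Within the list 14 rose and 5 fell, with log2 differences of 0.81 for Trem2, a lipid receptor, and -0.48 for Csf1r, the growth factor receptor of the lineage. Among those that fell were the antibody receptor genes Fcgr1, Fcgr2b and Fcgr4, with -0.26, -0.29 and -0.47. Of 16 neutrophil and precursor markers 9 had a row here and 8 were tested, of which 4 fell and 1 rose. Their sum ran from 644 to 662 RPKM at 16 h and 475 to 820 RPKM at 24 h, where the 820 is replicate 4 and the other 3 libraries, at 475, 555 and 582, lay below all at 16 h. S100a8 stood at 16.9 to 29.9 and 12.9 to 20.3 RPKM and Camp at 1.42 to 2.27 and 0.378 to 0.578, a small part of this sum. At 0 h the sum had been 29.8 to 37.6 RPKM. The neutrophil markers include Lcn2 and the dendritic cell markers Bst2, which also stand in the lists of inflammatory mediators and interferon-stimulated genes. Of 12 dendritic cell markers 6 were tested, with a sum of 1380 to 1590 RPKM at 16 h and 1230 to 2120 RPKM at 24 h. Lymphocyte markers, with 2 of 18 in a row here, summed to 3.04 to 3.60 RPKM at 16 h and 3.67 to 5.86 RPKM at 24 h (two-sided exact permutation p = 0.0286, adjusted 0.157). Replicate 4 also set the upper end at 24 h for the dendritic and lymphocyte sums. Stromal markers, with 8 of 14, summed to 2.59 to 3.48 and 2.64 to 3.17 RPKM, and none of 14 erythroid and mast cell markers had a row here. The part of these cells in the changes above was not tested.

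To place the step within the response, its genes were set beside the change from 0 to 4 h, which shares no library with it. Most genes with a large late fall had been higher at 4 h. Of the 221 genes that fell by at least 1.5-fold, 190 (86.0%) were higher at 4 h than at 0 h, against 42.5% of all tested genes, and these are 4.49% of the 4228 genes higher at 4 h. Of the 231 that rose by at least 1.5-fold, 170 (73.6%) were lower at 4 h, against 42.7% of all, and these are 4.00% of the 4248 lower at 4 h. Over all called genes the shares were 63.4% and 64.5%. Outside this pattern, 20 of the 221 (9.05%) were lower at 4 h and 36 of the 231 (15.6%) were higher at 4 h. Nos2 is among the 36, since it had gone from 0.150 RPKM at 0 h to 435 at 4 h and 133 at 8 h before its late rise.

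The profiles of single genes differ in shape. Tnf reached 1010 RPKM at 4 h and was lower at each later time, at 389, 36.8 and 11.3 RPKM. Ccl2 went from 3510 RPKM at 4 h to 1620 at 8 h and back to 4440 at 16 h before its drop, so the 16 h mean was the highest of the 5. Txnip stood at 213 RPKM at 0 h, 25.7 at 8 h and 321 at 24 h, above its starting level. Cxcr4 reached 13.3 RPKM at 24 h from 0.217 at 4 h, still below the 48.8 of unstimulated cells. Vegfa at 24 h, with 39.4 RPKM, exceeded its 0 h mean of 11.6.

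**Figure D4:**
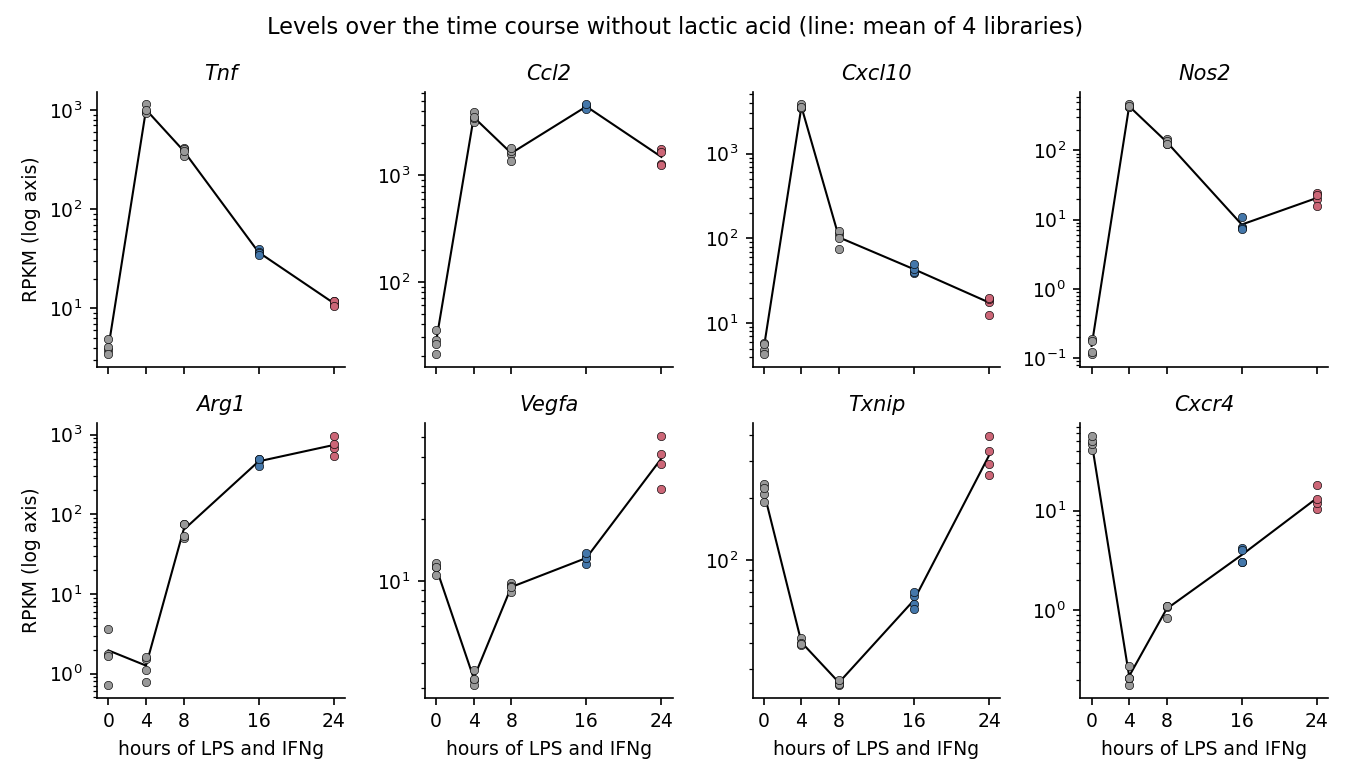
RPKM on a log axis against hours of LPS and IFNg for 8 genes without lactic acid; points are the 4 libraries of each time, blue at 16 h and red at 24 h, and the line joins the means. Tnf and Cxcl10 fall from 4 h on, and Txnip and Cxcr4 climb back from their low points at 8 h and 4 h. Nos2 peaks at 4 h, falls until 16 h and is higher again at 24 h.

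The arm with lactic acid covers the same interval in other libraries. In that arm 3595 genes rose (36.2%) and 3462 fell (34.8%). Of the 2398 genes that rose without lactic acid 1615 (67.3%) also rose with it and 217 (9.05%) fell. The 1615 are 44.9% of the genes that rose with lactic acid. Of the 2316 that fell 1504 (64.9%) also fell, which are 43.4% of those lower with lactic acid, and 216 (9.33%) rose. Across the 9942 genes, which are not independent replicates, the steps had a Pearson correlation of 0.64 and a Spearman correlation of 0.58. Tested directly, the step differed between the arms in 4984 genes (50.1%), more positive with lactic acid in 2671 (26.9%) and more negative in 2313 (23.3%). The slope on gene length ran from 0.0237 to 0.0772 at 16 h with lactic acid and from -0.22 to -0.0657 at 24 h. Without lactic acid it ran from -0.106 to 0.00562 at 16 h and from -0.211 to -0.00124 at 24 h. With the length trend removed the step differed in 4699 genes. The part of this slope in single genes was not tested.

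Txnip, Vegfa, Gpr84 and Nos2 moved in the same direction in both arms, with log2 differences of 2.07, 1.56, -2.86 and 0.85 with lactic acid. The differences between the steps of -0.21, 0.05, -0.40 and -0.33 (SE 0.14, 0.14, 0.20 and 0.18) did not pass. Cxcr4 rose far more with lactic acid, from 2.11, 1.63, 2.07 and 2.30 RPKM to 39.3, 40.5, 35 and 35.8 RPKM, a difference between the steps of 2.05 (SE 0.16, limma adjusted p = 5.5e-10). Hilpda went from 55.2, 52.2, 51.9 and 51.1 RPKM to 306, 203, 216 and 258 RPKM with lactic acid and had a difference between the steps of 1.54 (SE 0.17, limma adjusted p = 1.6e-07). The steps of Gdf15, Rgs1, a regulator of G protein signals, and Fxyd2, a subunit of the sodium pump, were also more positive, by log2 differences of 1.65, 1.58 and 1.43. The step was more positive also for Arg1 and Ldha, by log2 differences of 1.19 and 0.64.

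Klf2 showed the opposite. With lactic acid it stood at 27.4, 27.9, 29 and 28.1 RPKM at 16 h and 32.5, 19.4, 28.5 and 24.6 RPKM at 24 h, overlapping groups, so that the steps differed by -1.20 (SE 0.16, limma adjusted p = 2.2e-06). The steps of Ap5b1, BC005537, Rnf213 and Ccdc88b were more negative with lactic acid, by log2 differences of -1.04, -0.93, -0.93 and -0.88. BC005537 rose without it and fell with it, with log2 differences of 0.47 and -0.47. Among the chemokines named, the falls of Ccl7 and Ccl2 were smaller with lactic acid, with log2 differences of -0.90 and -0.64, and the differences between the steps were 1.16 and 0.95 (limma adjusted p = 9e-05 and 6e-05). That of Cxcl10 was larger, with a log2 difference of -1.74 and a difference between the steps of -0.47 (limma adjusted p = 0.04). Leaving out 1 library of the 16 at a time gave between 4216 and 5766 genes with a called difference.

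**Figure D5:**
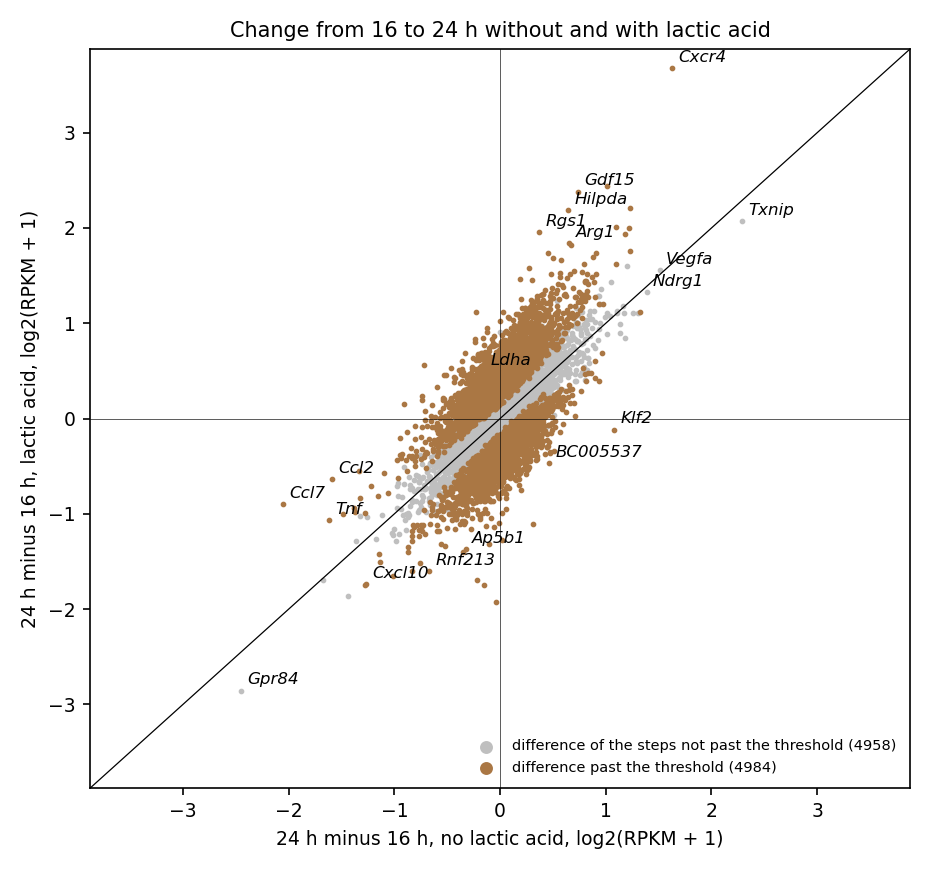
Each point is 1 of 9942 genes, with its difference between 24 h and 16 h in log2(RPKM + 1) without lactic acid on the x axis and with lactic acid on the y axis. Brown points are the 4984 genes whose steps differ between the arms, and the diagonal marks equal steps. Cxcr4 lies far above it and Klf2 below, while Txnip, Vegfa and Ndrg1 lie near it.

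The ChIP-seq peaks of lactylated (H3K18la) and acetylated (H3K18ac) lysine 18 of histone H3, marks found at active promoters, were set beside the genes of the step. They come from 1 library each of M0 cells and of M1 cells at 24 h, so they have no replicate and none from 16 h. At the promoters of the 174 genes that fell by at least 1.5-fold and have an entry, 15 (8.62%) held an H3K18la peak in M1 but not in M0, against 1.20% of the 7997 tested genes. Of the 181 genes that rose by as much none did. An H3K18la peak in M0 but not in M1 lay at 31 (17.8%) of the genes that fell and 51 (28.2%) of those that rose, against 24.3% of all. The M0 library has 21885 H3K18la peaks and the M1 library 16139. They lie at 88.9% and 65.8% of the 7997 promoters, and for H3K18ac these shares are 92.3% and 89.4%. The part of fewer called peaks in the M0-only shares was not tested. H3K18ac in M1 only lay at 4.02% of the genes that fell and 1.66% of those that rose, against 2.13% of all. H3K18ac in M0 only lay at 5.17% and 10.5%, against 5.03% of all. Cxcl10 was among those with a peak of both marks in M1 but not in M0, and the promoter of Cxcr4 held both in M0 and neither in M1. With peaks limited to a -log10 q of at least 5, the shares with H3K18la in M1 only were 8.05% of the genes that fell, none of those that rose and 0.938% of all. For H3K18ac in M1 only they were 8.62%, 2.21% and 3.66%.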

How the data were processed

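RNA of 32 macrophage libraries in 8 groups of 4 was analysed, together with 4 ChIP-seq peak lists. The authors deposited 1 table of RPKM values with 1 column per library, and per the file headers it also holds log2 fold changes, a mean log2 CPM, and a p-value with its false discovery rate per gene, from a test over all groups. HISAT2 2.1.0, featureCounts 1.5.0-p1, Bowtie2 2.2.6, MACS2 2.2.1 and SAMtools 0.1.19, with builds mm10 and GRCm38, are named in the submitters' processing notes without their settings. The lists of broad peaks give a -log10 q per peak, deposited by the authors for each library on its own. From these columns the authors' FDR was used, and their log2 fold changes only as a check on the RPKM means. For genes with a mean level above 5 on the log2 scale the median absolute difference was 9.2e-05.

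Every RPKM value corresponded to a whole number of reads (100.0% within 0.05 of a read), which gave the depth and the effective library size of each library. Gene identifiers were matched to symbols for 11172 of 11184 rows. A gene was tested when 4 or more of the 32 libraries had 1 RPKM or more, which left out 1242. Values were taken as log2(RPKM + 1) and fitted with limma 3.58.1 (trend option, R 4.3.3), with a mean per group over all 32 libraries and 24 residual degrees of freedom. The difference between the arms was an interaction contrast of the same fit. Adjusted p-values are Benjamini-Hochberg over all tested genes. The fit was tested on simulated data with 1.5-fold changes in genes above a minimum of reads. It recovered 190 of 195 tested changes (97.4%), and 5% of its calls were false. The simulation had the same dispersion of 0.01 in every group, no library apart and no trend with gene length. It therefore cannot show how the fit behaves with a library such as 24 h replicate 4.

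Genes named in the text are Actb, Arg1, Cxcl10, Il1b, Il6, Ldha, Nos2, Tnf and Vegfa, the 12 with the largest rise and the 12 with the largest fall at a mean of at least 3 on the log2 scale and without overlap, up to 4 called members of each of 34 gene lists, and 5 in each direction for the difference between the arms. Gene models with systematic names were skipped. Members outside this rule, among them exceptions to a list's direction, were named after their values were seen. The genes, lists, motifs and promoters were chosen with earlier results of these data known. Lists are described by counts and medians without a set test. Promoters are RefSeq windows (GRCm38.p6) of 300 bases, 250 before and 50 after the start, for 7997 tested genes, and a peak was assigned with an overlap of at least 1 base. Input libraries and spike-in totals were not used here.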

Additional observations from a re-analysis of the deposited data

Results flagged for a closer look

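Among the 137 named genes and 11 library values, 19 of 296 groups of 4 libraries at 16 h or 24 h (6.42%), all of them of genes, had 1 library apart from the other 3, where chance flags about 5% of such groups. The measure is the gap to the nearest library divided by the range. Of 13 such genes at 24 h, replicate 4 was the library apart in 11. It was high for Ankrd37 (0.910), Atp5d (0.877), Ccl17 (0.865), Ctss (0.970), Klf2 (0.892), Ndufa2 (0.869), Rpl37 (0.932) and S100a9 (0.988), and low for Ddx17 (0.857), Gclc (0.905) and Iars (0.879). The other 2 genes at 24 h were Hdac1, with replicate 2 high (0.925), and Slc40a1, with replicate 1 high (0.868). At 16 h the library apart was replicate 1 for Acss2 (0.857), Gdf15 (0.900), Gpr84 (0.842) and Hist1h1c (0.840) and replicate 4 for Creld2 (0.864) and Nos2 (0.878). For Nos2 that library stood at 11.1 RPKM against 7.40 to 7.85 RPKM, and the 24 h libraries were still all above it.

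The step from 16 to 24 h differed between the arms with and without lactic acid in 4984 genes, more positive with lactic acid in 2671 and more negative in 2313, by the limma test of the difference with Benjamini-Hochberg adjustment. Of the 137 named genes 74 were among them. Log2 differences between the steps were positive for Cxcr4 (2.05), Gdf15 (1.65), Rgs1 (1.58), Hilpda (1.54), Fxyd2 (1.43), Arg1 (1.19), Ldha (0.64) and Tnf (0.56). They were negative for Klf2 (-1.20), Ap5b1 (-1.04), Rnf213 (-0.93), BC005537 (-0.93), Ccdc88b (-0.88), Cxcl10 (-0.47) and Actb (-0.46). What accounts for these differences was not tested.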

How the results depend on the processing

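None of the 137 named genes changed direction under the 19 alternatives in which it was tested, and 113 of the 136 called ones stayed called in all of these. The minimum applied to the 8 libraries alone tested 132 of them, without Cacnb3, Ccne2, Cenpa, Il6 and Vwf. With only the 8 libraries at 16 h and 24 h in the fit, 1320 genes were higher and 1365 lower, an alternative with fewer libraries. In that fit the counts of higher genes fell also for growth and repair factors (5), TCA genes (3), LXR targets (3), ATF4 targets (4) and MHC class I (3), and the counts of lower genes for NRF2 targets (4), histone enzymes (4) and arginine genes (5). Scaled by the reads in listed genes 1596 were higher, and 332 fell by at least 1.5-fold. With a pseudocount of 0.1, 442 genes rose and 431 fell by at least 1.5-fold, and with limma voom on recovered reads, added after seeing the data, 526 and 480. Leaving out 1 library at a time gave 2112 to 2511 genes higher and 2066 to 2368 lower, of which 184 to 293 and 206 to 245 by at least 1.5-fold, and 4216 to 5766 genes with a difference between the arms. Without 24 h replicate 4 there were 2227 higher and 2355 lower, of which 1943 and 2013 were also called with it. Deviations of same-numbered libraries at 16 h and 24 h correlated at 0, 0.24, -0.60 and -0.37. Those of libraries with unlike numbers ran from -0.67 to 0.67. With so few libraries these values cannot settle whether the replicate numbers pair them, and the labels do not say. With the replicate block 2387 genes were higher and 2286 lower (232 and 221 by at least 1.5-fold), and the arms differed in 4954. The replicate block in the 8 libraries alone gave 1005 higher and 998 lower. The planned edgeR and DESeq2 tests were not run, since the deposited unit is RPKM. For genes under 1 RPKM the depth and the pseudocount limit what differences can show.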
